A study of Homo sapiens with 32 samples.

Results

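MCF10A cells are an immortal but not malignant line of human breast epithelium with basal features, which loses its epithelial layout when exposed to TGFβ1. The comparison described here set JUNB-edited cells (mut) against cells with unedited JUNB (WT) after 6 h of TGFβ1 at 5 ng/ml. It comprises the 8 RNA-seq libraries of that time point, 4 mut and 4 WT, out of 32 libraries in all, chosen by genotype and time in the labels and not by any measured value. The mut libraries came from clones 1 and 65, labelled JUNB knock-out. The WT libraries came from clones 27 and 2. Each clone gave a pair of replications. All 4 clones were grown from single cells after the same editing procedure, so that 2 clones stand for each genotype, and the edit removed an extended stretch of the gene while a smaller JUNB polypeptide was still made at a low level. Solvent-treated libraries of the same clones (0.1% BSA in PBS, labelled 0 h, 4 per genotype) were used to set the genotype difference at 6 h beside that without TGFβ1. In the study these cells received solvent for 72 h, and all samples were harvested at the same time after seeding. The label 0 h thus means no TGFβ1 and not an earlier harvest. The 24 h and 72 h libraries entered the model only through the shared estimate of the spread. Libraries are named by clone and replication, and where 4 values follow each other the order is 27-1, 2-1, 27-2 and 2-2 for WT, and 1-1, 65-1, 1-2 and 65-2 for mut.

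JUNB is a basic leucine zipper protein of the activator protein 1 (AP-1) family. It pairs with FOS or other JUN-type partners and binds a short palindromic DNA element in promoters and enhancers. TGFβ1 binds a pair of receptor kinases that phosphorylate SMAD proteins, and SMAD complexes act together with AP-1 at a number of target genes. In epithelial cells the early targets of this pathway include protease inhibitors, matrix proteins, integrins and transcription factors of the epithelial-mesenchymal transition (EMT).

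Counts per gene were scaled to counts per 1000000 counts of the library (CPM) and compared with limma-voom over 14865 genes. A gene is called higher or lower where its Benjamini-Hochberg adjusted p-value was under 0.05. Log2 differences are mut minus WT, and a signed value in brackets after a gene is that difference at 6 h, with its SE where given. The 8 libraries held 40151501 to 52643961 counts, so that 3 counts, taken as the floor, lay between 0.0570 and 0.0747 CPM. CPM are not divided by gene length and are compared here within a gene only. In bulk RNA, fewer cells of a kind and less RNA per cell cannot be told apart.

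The defining markers of basal mammary epithelium were abundant in each library, with a summed level of 14670 to 16890 CPM in WT and 16800 to 21230 CPM in mut. KRT5 had the highest mean in both groups. The markers did not move in 1 direction: of 8 tested, 3 were called higher and 2 lower, CDH3 (-0.33) and LAMB3 (62.5% called against 21.4% of all genes). Of the 8 fibroblast markers 7 were in the table, with COL1A2, COL3A1 and THY1 at no more than 0.0467 CPM and a summed level, mostly FAP, of 87.6 to 100.3 CPM in WT and 67.4 to 91.8 CPM in mut. The blood and endothelial markers summed to 9.60 to 18.4 CPM in WT and 5.79 to 7.18 CPM in mut, nearly all of it CD68, and of the markers that define blood cells, PTPRC did not exceed 0.0498 CPM and CD3E was at 0 in all 8 libraries.

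A pair of libraries stood apart. In a principal component analysis of the 8 libraries at 6 h, PC1 (41.0% of the variance) separated the genotypes, from -72.6 to -23.2 in WT and from 34.9 to 48.4 in mut. PC2 (19.7%) set the WT library 27-2 at 60.0 against -41.9 to 12.5 for the other 7. Among the solvent libraries, mut 1-2 held ADAM19 at 58.4 CPM, FN1 at 1413 CPM and TGFBI at 1837 CPM, where the other 3 mut solvent libraries reached at most 5.35, 373 and 740.0 CPM. Values without these libraries are given below for the named genes that moved with them.

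The targeted gene was read first. JUNB lies on GRCh38 chromosome 19, 12791486 to 12793315, plus strand, and its reads may include some of HOOK2, which runs over it the other way. It stood at 217, 251, 187 and 276 CPM in WT and at 202, 436, 129 and 494 CPM in mut. Clone 65 lay above all WT libraries, and clone 1 did not reach the WT mean of 232.5 CPM. The log2 difference of 0.25 ± 0.32 (SE) had a limma-voom adjusted p-value of 0.626, and a two-sided exact permutation test of the 4 against 4 libraries gave p = 0.6, where the smallest p it can reach is 0.0286. Counts over the whole gene cannot show the deletion, so that JUNB does not check the labels here, and WT and mut denote labels throughout.

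At 6 h the genotypes differed at 3177 genes, 21.4% of those tested, with 1685 higher (11.3%) and 1492 lower (10.0%) in mut. The differences were mostly small, with a median size of 0.47 on the log2 scale among called genes. By at least a log2 difference of 1, 382 genes were higher and 361 lower, and by at least 2 the numbers were 121 and 158. The 4 mut libraries lay wholly above or below the 4 WT libraries in 2500 of the called genes (78.7%), against 3168 (21.3%) of all genes tested. The median difference of all genes was 0.0164. Without the WT series 27-2 the count was 2914, with the replications of each clone summed to 1 value it was 2079, and with a minimum log2 difference of 1 it was 743.

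**Figure D1:**
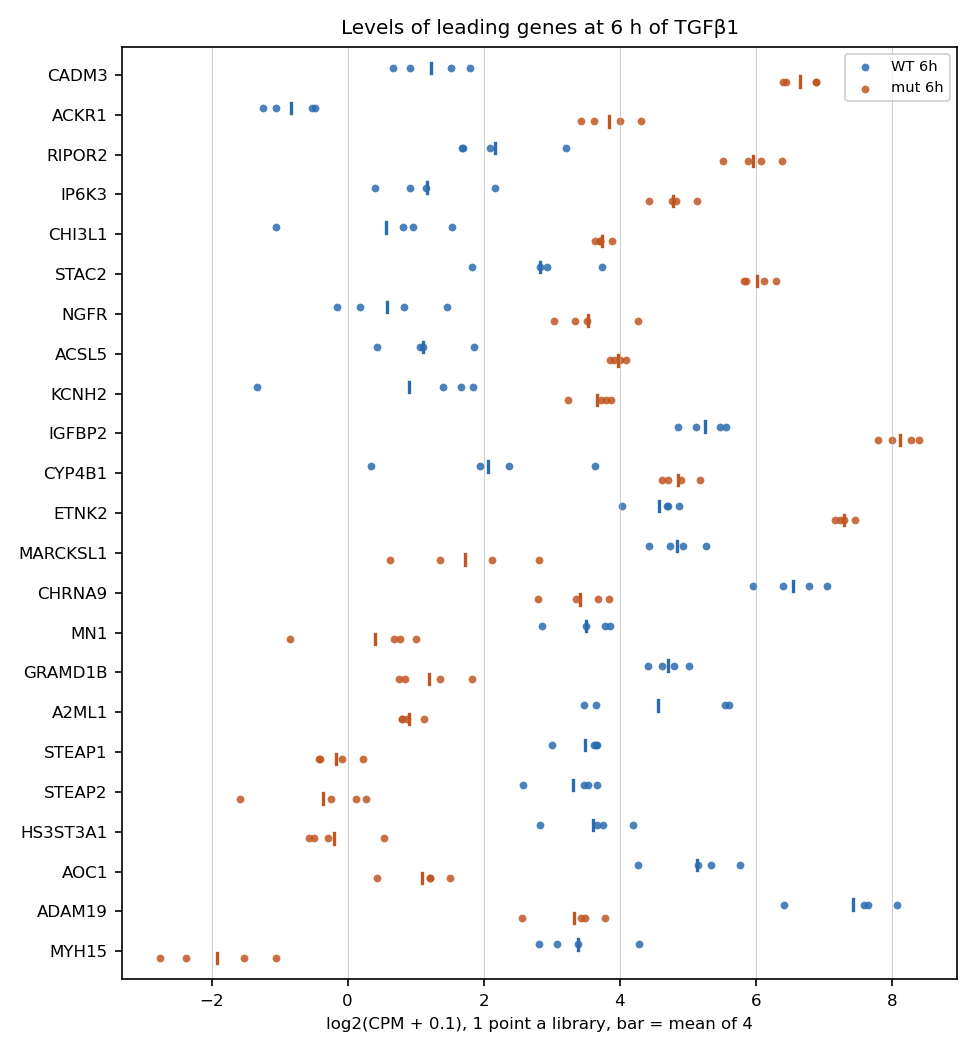
Levels of genes among the 12 most raised and the 12 most lowered by the naming rule at 6 h of TGFβ1, as log2(CPM + 0.1), with 1 point a library (blue WT, orange mut, 4 each) and a bar at the mean of the 4. The naming rule admitted only genes whose WT and mut libraries did not overlap, so the gap between the groups was set by the choice of genes. CADM3 lay between 84.1 and 118 CPM in mut and between 1.49 and 3.36 CPM in WT, and MYH15 at 0.0482 to 0.382 CPM in mut and at 6.94 to 19.3 CPM in WT.

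The leading genes were taken among called genes with a mean of at least 10 CPM and no overlap of libraries. The 12 with the largest excess in mut began with surface molecules. CADM3 (ENSG00000162706, GRCh38 chromosome 1, 159171609 to 159203313, plus strand), an immunoglobulin-type cell adhesion molecule, stood at 1.79, 1.49, 3.36 and 2.76 CPM in WT and at 84.1, 118, 86.7 and 118 CPM in mut. Both clones of each genotype gave the same picture, and the difference was 5.46 ± 0.50 (SE, limma-voom adjusted p = 5.22e-09). ACKR1, the Duffy antigen and a chemokine-binding receptor that does not signal through G proteins, stood at 0.321, 0.598, 0.381 and 0.614 CPM in WT and 12.3, 19.7, 10.7 and 15.9 CPM in mut (4.94 ± 0.70 SE, limma-voom adjusted p = 6.86e-06). NGFR, the p75 neurotrophin receptor, stood at 2.66, 0.797, 1.67 and 1.04 CPM and 8.11, 9.99, 19.1 and 11.3 CPM (3.03 ± 0.42 SE, limma-voom adjusted p = 3.90e-06). Reads of NGFR may include some of NGFR-AS1 on the other strand, since the library kit kept no strand.

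KCNH2, a voltage-gated potassium channel, was 2.91 higher on the log2 scale, at 3.48, 2.54, 0.296 and 3.09 CPM in WT against 14.5, 13.8, 9.33 and 13.1 CPM in mut. Its WT library 27-2 lay far below the other 3 WT libraries, and without it the difference of KCNH2 at 6 h was 2.06 (limma-voom adjusted p = 0.000992). STAC2, a protein that binds voltage-gated calcium channels, stood at 13.3, 6.998, 3.45 and 7.56 CPM in WT and 78.6, 69.2, 56.4 and 57.7 CPM in mut (3.22 ± 0.26 SE, limma-voom adjusted p = 4.88e-10). RIPOR2, an inhibitor of the small GTPase RhoA, stood at 9.16, 3.14, 3.11 and 4.18 CPM and 67.1, 59.2, 83.4 and 45.7 CPM (3.82 ± 0.33 SE, limma-voom adjusted p = 1.26e-09). These 3 genes were also called in solvent, at 1.92, 3.43 and 3.05.

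Among secreted proteins, IGFBP2, which binds insulin-like growth factors, stood at 47.4, 34.8, 28.9 and 44.3 CPM in WT and 221, 338, 256 and 312 CPM in mut (2.86 ± 0.22 SE, limma-voom adjusted p = 2.44e-10). CHI3L1, a chitinase-like glycoprotein, stood at 2.79, 1.84, 0.381 and 1.65 CPM and 14.7, 13.05, 12.4 and 12.9 CPM, with the WT library 27-2 again lowest. The difference of 3.32 became 2.70 for CHI3L1 at 6 h without that library (limma-voom adjusted p = 0.000406). The remaining 4 of the 12 are enzymes. IP6K3, an inositol phosphate kinase, differed by 3.72, ACSL5, a fatty acyl-CoA ligase, by 2.93, CYP4B1, a cytochrome P450, by 2.85 (2.25 without WT 27-2), and ETNK2, an ethanolamine kinase, by 2.72 on the log2 scale. ACSL5 overlaps ZDHHC6, and ETNK2 overlaps ERLNC1, on the other strand. All 12 genes were called higher in solvent as well, with log2 differences from 1.92 (KCNH2) to 5.76 (CADM3), and KCNH2 was not called there without the solvent library WT 27-2 (1.49, limma-voom adjusted p = 0.0757).

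The genes with the largest deficit in mut included a disintegrin metalloprotease. ADAM19 (ENSG00000135074, GRCh38 chromosome 5, 157395534 to 157575775, minus strand) stood at 84.8, 199.8, 268 and 192 CPM in WT and at 11.2, 13.7, 5.84 and 10.7 CPM in mut. The lowest WT library lay far above the highest mut library, and the difference was -4.09 ± 0.54 (SE, limma-voom adjusted p = 2.24e-06). In solvent its levels were 42.7, 40.97, 95.2 and 18.6 CPM in WT and 2.03, 5.35, 58.4 and 3.08 CPM in mut, where mut 1-2 was the library named above. The solvent difference of ADAM19 was -2.70 (limma-voom adjusted p = 0.00409), and -3.70 without mut 1-2 (limma-voom adjusted p = 0.000996). ADAM19 overlaps CYFIP2 on the other strand.

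MYH15, a myosin heavy chain, stood at 6.94, 10.4, 19.3 and 8.36 CPM in WT and 0.0935, 0.382, 0.0482 and 0.247 CPM in mut. The mut libraries together held 39 counts against 2066 in WT, a ratio of WT to mut of 54.7 with an exact 95% counting interval of 39.9 to 77.2, which covers counting error only. Its fitted log2 difference was -5.96 ± 1.2 (SE, limma-voom adjusted p = 5.68e-04). CHRNA9, a nicotinic acetylcholine receptor subunit, stood at 62.3, 84.6, 132 and 109.5 CPM and 14.2, 10.1, 6.83 and 12.8 CPM (-3.13 ± 0.45 SE, limma-voom adjusted p = 7.98e-06).

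STEAP1 and STEAP2, neighbouring genes on chromosome 7 of a metalloreductase family, were both lower. STEAP1 stood at 7.92, 12.6, 12.5 and 12.3 CPM in WT and 0.654, 0.649, 0.844 and 1.06 CPM in mut, and STEAP2 at 5.84, 12.6, 11.5 and 11.04 CPM and 0.234, 0.993, 0.748 and 1.102 CPM. Their log2 differences were -3.80 and -3.82. Also among the 12 were AOC1, a diamine oxidase (-4.09), HS3ST3A1, which sulfates heparan sulfate (-4.01), A2ML1, a protease inhibitor of stratified epithelia (-3.68), GRAMD1B, a sterol transporter (-3.60), MN1, a transcriptional coregulator (-3.16), and MARCKSL1, an actin-binding protein (-3.08). A2ML1 separated by replication in WT, at 48.4, 46.6, 10.96 and 12.4 CPM, the 2 libraries of replication 1 far above those of replication 2, against 1.63 to 2.08 CPM in mut. The limma-voom adjusted p-value of A2ML1 at 6 h, 0.0167, became 0.05 without mut 65-1, 0.0507 without mut 65-2 and 0.0572 without the series mut 1-2. All 12 were called lower in solvent too, from -3.78 for A2ML1 to -1.43 for MN1. In solvent A2ML1 was not called without mut 1-2 (limma-voom adjusted p = 0.0559), nor were MN1 and CHRNA9 without WT 27-2 (limma-voom adjusted p = 0.0884 and 0.0509).

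**Figure D2:**
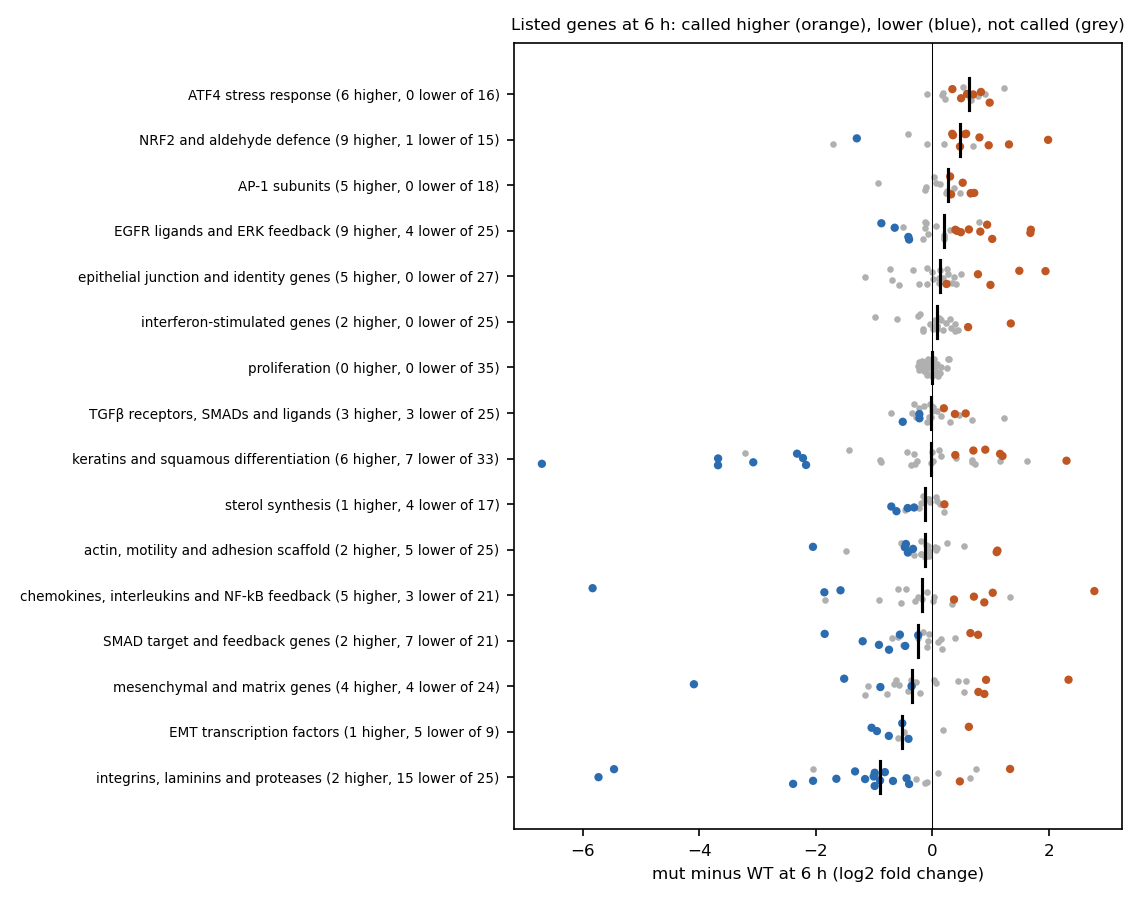
Log2 difference of mut against WT at 6 h for each tested member of 16 gene lists, with orange points called higher, blue points called lower, grey points not called and a black bar at the list's median. The integrin, laminin and protease list lies furthest left, with a median of -0.897, and the ATF4 stress list furthest right, at 0.623, while the 35 proliferation genes sit within a narrow band around 0.

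Integrins, laminins and pericellular proteases formed the list with the lowest median. They attach epithelial cells to the basement membrane and cut it. Of the 25 members, all tested, 15 were lower and 2 higher, and 8 did not pass the test, so that 68.0% were called against 21.4% of all genes. The median difference was -0.897, against 0.0164 for all genes. Over the settings tried with no minimum fold, 13 to 16 members were called lower. In solvent 8 were lower and 3 higher, with a median of -0.298.

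**Figure D3:**
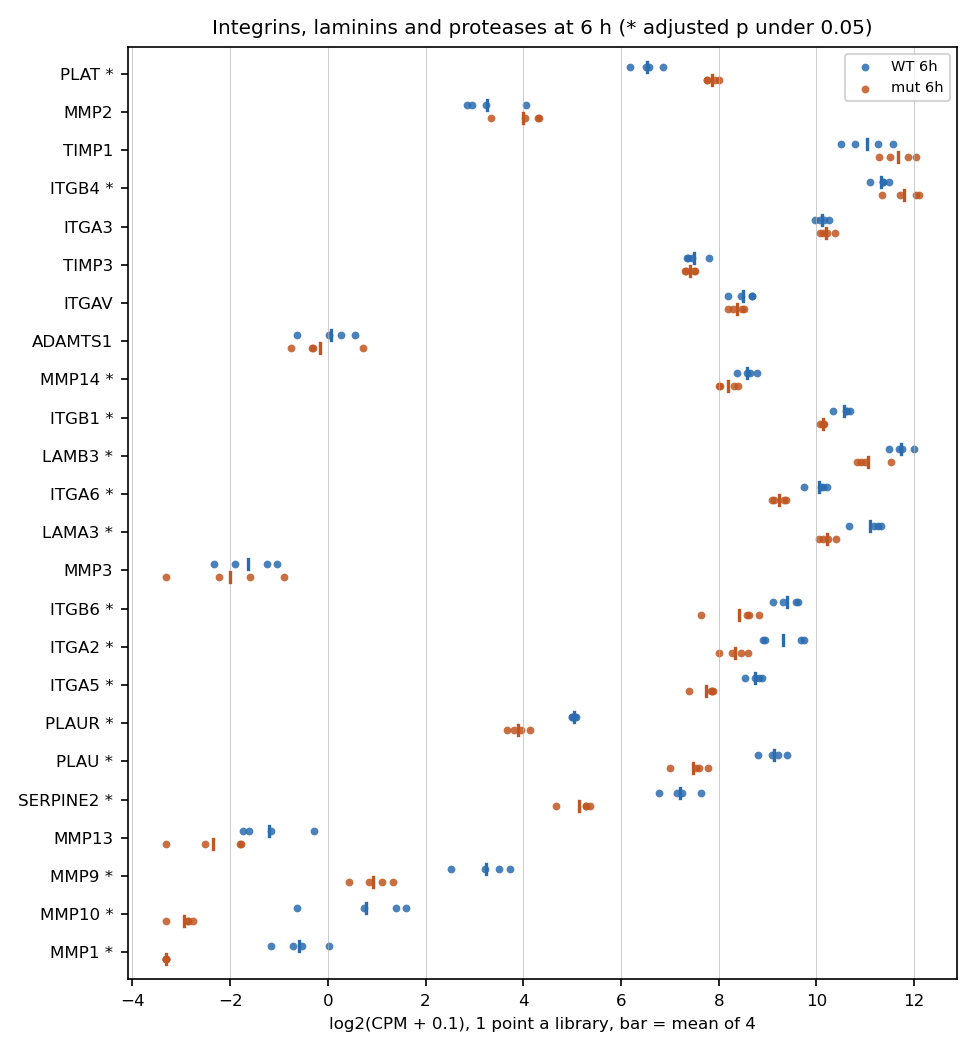
Levels of integrin, laminin, protease and protease inhibitor genes of the list at 6 h, as log2(CPM + 0.1), with 1 point a library (blue WT, orange mut, 4 each) and a bar at the mean. Genes are ordered by their difference and an asterisk marks an adjusted p-value under 0.05. The upper rows, such as PLAT, lie to the right in mut, and from MMP14 downwards all but MMP3 and MMP13 are called lower.

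The plasminogen activators PLAU and PLAT moved in opposite directions. PLAU, the urokinase-type plasminogen activator, stood at 446, 543, 669.8 and 594 CPM in WT and 219, 192, 128 and 185 CPM in mut (-1.65 ± 0.24 SE, limma-voom adjusted p = 1.02e-05). PLAUR, its receptor, gave 33.4, 31.9, 33.8 and 32.02 CPM and 17.4, 13.9, 12.7 and 15.3 CPM (-1.15 ± 0.19 SE, limma-voom adjusted p = 7.18e-05). PLAT, the tissue-type activator, was higher, at 117, 91.1, 72.2 and 95.1 CPM in WT and 218, 258, 243 and 216 CPM in mut (1.34 ± 0.20 SE, limma-voom adjusted p = 1.58e-05). For each of the 3 genes the groups did not overlap. Their inhibitor SERPINE2 was lower (-2.05), at 109.6, 151, 200.3 and 142 CPM and 38.9, 38.9, 25.2 and 41.3 CPM. PLAU, PLAUR and PLAT, like the further members of this and the other lists given below that lie outside the naming rule, were picked for the text after their values were seen.

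The laminin chains LAMA3 and LAMB3, parts of the epithelial basement membrane, were lower. LAMA3 stood at 1617, 2443, 2565 and 2316 CPM in WT and 1201, 1128, 1064 and 1354 CPM in mut (-0.90 ± 0.17 SE), without overlap. LAMB3 differed by -0.67 and its groups overlapped, since its mut library 65-2 reached 2946 CPM and its WT library 27-1 stood at 2878 CPM. The integrin subunits ITGA5 (371, 430.1, 454 and 469.5 CPM in WT, 235, 229, 167 and 233 CPM in mut, -1.01), ITGA2 (-0.99), ITGB6 (-0.99), ITGA6 (-0.81) and ITGB1 (-0.44) were lower. ITGB4, the partner of ITGA6 in hemidesmosomes, was higher by 0.47 with overlapping groups (2184 to 2852 CPM in WT, 2587 to 4405 CPM in mut).

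Among matrix metalloproteases MMP14, a membrane-bound collagenase, was lower (-0.40, 331 to 438 CPM in WT, 259 to 335 CPM in mut). MMP1, the interstitial collagenase, had no count in any mut library and 107 counts in the WT libraries (0.343, 0.922, 0.508 and 0.594 CPM). The pooled WT level of MMP1 was at least 36.8-fold above a floor of 3 counts over the mut group, a bound that leaves out the spread between libraries. MMP10, stromelysin 2, stood at 1.58, 2.52, 0.5501 and 2.91 CPM in WT and held 6 counts over the 4 mut libraries. Its ratio of WT to mut was 59.9, with an exact 95% counting interval of 27.3 to 164 that covers counting error only. MMP9 stood at 5.66, 11.2, 9.203 and 13.1 CPM and 2.06, 1.24, 1.69 and 2.41 CPM (-2.39 ± 0.50 SE, limma-voom adjusted p = 9.03e-04). MMP1 overlaps WTAPP1 and PLAU overlaps C10orf55 on the other strand. Further genes named below share ground with an opposite-strand gene in the same way, among them SMURF1, SMURF2, HMGA2, TNC, VIM, TAGLN, LOX, TJP3, CLDN7, ESRP2, SHMT2, VCL and MYC.

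Promoter windows of this list were read for the AP-1 element, because JUNB binds it. The letters searched were TGANTCA, which read the same on both strands and do not include the CRE element TGACGTCA. RefSeq windows on GRCh38.p14, from 250 bases before to 50 bases after a start site, were at hand for 15 of the 25 members, 12 of which were called lower in mut. The letters were in 5 of these 12 (ITGA5, LAMA3, LAMB3, MMP10 and PLAUR) and in none of the other 3. A gene can have several windows, and of the 35116 windows given 7.71% held the letters, as did at least 1 window in 9.37% of 27305 genes. In the list of keratins and squamous genes 5 of 17 genes with a window did, namely IVL, SPRR1A, SPRR1B, SPRR2A and SPRR3, and all of these but SPRR2A were called lower, out of 6 lower genes with a window. A window was given for 78.7% of all tested genes and for 77.0% of the higher ones, under the 80% needed here, and the lists' own coverage was lower still, so that a comparison of shares was void and nothing is read from them. A match is a run of letters and not a measured site. The 250 bases before the start are shown, 5′ to 3′, for 4 adhesion and protease genes and 2 squamous genes, with the matching letters in capitals.
LAMB3 chr1:209651375-209651624 minus strand: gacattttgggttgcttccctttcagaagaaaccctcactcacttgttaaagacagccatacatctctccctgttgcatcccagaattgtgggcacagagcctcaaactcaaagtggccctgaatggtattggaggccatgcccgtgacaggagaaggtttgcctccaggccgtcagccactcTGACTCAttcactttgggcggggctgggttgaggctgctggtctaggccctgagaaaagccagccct
LAMA3 chr18:23872770-23873019 plus strand: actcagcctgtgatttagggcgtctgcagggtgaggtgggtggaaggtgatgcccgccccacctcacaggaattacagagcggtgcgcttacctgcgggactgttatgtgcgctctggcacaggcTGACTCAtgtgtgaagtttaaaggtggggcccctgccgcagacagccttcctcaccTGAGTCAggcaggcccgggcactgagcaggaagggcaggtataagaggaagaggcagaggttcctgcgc
PLAUR chr19:43670170-43670419 minus strand: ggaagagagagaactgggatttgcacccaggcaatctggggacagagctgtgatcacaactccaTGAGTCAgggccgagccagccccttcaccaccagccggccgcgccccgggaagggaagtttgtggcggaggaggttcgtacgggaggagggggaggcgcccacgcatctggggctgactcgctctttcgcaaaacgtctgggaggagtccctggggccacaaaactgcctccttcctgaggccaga
MMP10 chr11:102780629-102780878 minus strand: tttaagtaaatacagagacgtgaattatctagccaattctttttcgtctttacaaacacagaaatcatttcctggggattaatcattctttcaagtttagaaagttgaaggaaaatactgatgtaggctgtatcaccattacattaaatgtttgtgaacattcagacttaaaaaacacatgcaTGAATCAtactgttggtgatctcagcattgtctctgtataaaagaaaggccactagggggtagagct
SPRR1B chr1:153030953-153031202 plus strand: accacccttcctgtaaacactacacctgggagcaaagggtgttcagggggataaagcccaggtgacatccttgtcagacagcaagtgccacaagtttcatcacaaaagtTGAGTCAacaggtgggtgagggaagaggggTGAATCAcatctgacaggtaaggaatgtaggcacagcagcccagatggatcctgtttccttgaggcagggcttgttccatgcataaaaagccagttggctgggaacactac
SPRR3 chr1:153001499-153001748 plus strand: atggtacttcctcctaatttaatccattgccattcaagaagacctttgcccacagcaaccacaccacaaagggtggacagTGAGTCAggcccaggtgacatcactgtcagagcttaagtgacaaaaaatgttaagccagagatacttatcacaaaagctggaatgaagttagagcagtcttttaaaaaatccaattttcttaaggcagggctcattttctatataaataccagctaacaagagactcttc
The match was centred 64 bases before the start in both LAMB3 and MMP10, at 122 and 66 bases in LAMA3, at 183 in PLAUR, at 138 and 108 in SPRR1B and at 167 in SPRR3.

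Among 33 keratin and squamous differentiation genes, all tested, 7 were lower, mostly genes of the cornified envelope, and 6 were higher, 5 of them keratins, so that 39.4% were called against 21.4% of all genes. The median was -0.0274. SPRR3, a small proline-rich protein of the cornified envelope, stood at 6.76, 5.65, 3.53 and 4.22 CPM in WT and 0, 0.115, 0.0482 and 0.03799 CPM in mut. That is 10 counts over the 4 mut libraries against 909 in WT, a ratio of 93.9. Its exact 95% counting interval, 50.8 to 196.5, covers counting error only. SPRR1B stood at 40.8, 45.3, 13.03 and 36.1 CPM and 8.01, 5.29, 5.88 and 5.57 CPM (-2.32 ± 0.51 SE, limma-voom adjusted p = 0.001399). SPRR1A differed by -3.07 and involucrin (IVL), the envelope's scaffold, by -2.22. The late envelope gene LCE3D (-3.68), CRCT1 (-2.17) and A2ML1, described above, made up the 7. The WT libraries of these genes spread widely, IVL from 17.8 to 71.3 CPM, yet none fell to the level of a mut library. Some SPRR genes are close copies of each other, and how reads shared between genes were counted is not given in the sources used here.

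KRT80, an epithelial type II keratin, stood at 41.2, 14.5, 25.2 and 10.2 CPM in WT and 106, 92.1, 103 and 87.4 CPM in mut (2.30 ± 0.37 SE, limma-voom adjusted p = 3.20e-05). The paired keratins of simple epithelia KRT8 (0.91) and KRT18 (0.71), whose genes overlap on opposite strands, were higher without overlap of the groups. KRT17 was higher by 1.16 (2491, 1759.9, 1468 and 1832 CPM and 4002, 4718, 3324 and 4761 CPM), and KRT5, the basal keratin, by 0.39 (5339 to 6997 CPM and 7301 to 8147 CPM). TGM1, the transglutaminase that cross-links the cornified envelope, was higher by 1.2 (0.86 without WT 27-2, limma-voom adjusted p = 0.0531). KRT17 has near-identical relatives, so that its counts are uncertain.

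SMAD target and feedback genes were lower in 7 and higher in 2 of 21 members tested (42.9% called against 21.4% of all genes, median -0.242). Solvent gave 2 lower and 3 higher (median 0.102). TGFBI, a secreted matrix protein induced by TGFβ, stood at 3839.5, 4091, 4506 and 4256 CPM in WT and 1439, 1237, 963 and 1048 CPM in mut. Both groups were tight and far apart (-1.85 ± 0.24 SE, limma-voom adjusted p = 1.49e-06). In solvent it stood at 1164, 1091, 1641 and 918 CPM in WT and 740.0, 686, 1837 and 566 CPM in mut, a difference of -0.46 that was not called (limma-voom adjusted p = 0.198). Without the solvent library mut 1-2, TGFBI was called lower in solvent, by -0.83 (limma-voom adjusted p = 0.00144). The change of that difference between solvent and 6 h was -1.38 ± 0.33 (SE) and did not pass the test (limma-voom adjusted p = 0.156), nor did it for TGFBI without that library (-1.01, limma-voom adjusted p = 0.197). This test, like those of such changes in other genes below, did not pair the solvent and 6 h libraries of a clone and replication.

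CDKN1A, the cell cycle inhibitor p21, was lower (-0.74) and tightly grouped, at 501, 532, 507 and 546 CPM in WT and 279.8, 319, 289 and 366 CPM in mut (limma-voom adjusted p = 2.57e-08). ID3 and ID1, inhibitors of helix-loop-helix factors, went opposite ways. ID3 stood at 102, 83.2, 80.8 and 75.3 CPM and 48.2, 49.2, 33.6 and 49.7 CPM (-0.92), and ID1 at 107, 83.1, 73.8 and 86.2 CPM and 156, 152, 135 and 156 CPM (0.79), neither with overlap. Of the pathway's own brakes, SMURF1, a ubiquitin ligase that targets the receptors, was lower (-0.56), as were SMURF2 (-0.46) and SMAD7 (-0.24). CCN2, a matricellular protein and SMAD and YAP target, was higher by 0.65 with overlapping groups (76.7 to 126 CPM in WT, 97.3 to 189 CPM in mut) and a limma-voom adjusted p of 0.0478, close to the threshold. The list held 1 higher member with TMM factors, by the edgeR quasi-likelihood test, by DESeq2, with no filter, with its groups alone, with clone sums, and without any one of WT 2-1, WT 2-2, mut 1-1, mut 65-1 or mut 65-2. Without mut 1-2, 4 members were lower and 3 higher, and the median was -0.0915.

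Among 25 TGFβ receptors, SMADs and ligands 3 were lower and 3 higher (24.0%, near the 21.4% of all genes). TGFBR1, the type I receptor, stood at 44.9, 60.9, 59.8 and 61.5 CPM in WT and 43.9, 36.7, 38.4 and 40.2 CPM in mut (-0.51 ± 0.11 SE, limma-voom adjusted p = 0.00169), and ACVR1B, the type I activin receptor, was higher by 0.57 (31.7 to 39.3 CPM in WT, 48.2 to 59.04 CPM in mut). SMAD5 (-0.22) and ENG (-0.22) were lower, SMAD9 (0.39) and SMAD1 (0.20) higher, all by small amounts. The call of ENG at 6 h was lost without WT 27-1, WT 27-2, mut 1-1, mut 65-1 or mut 65-2 (limma-voom adjusted p = 0.0552 to 0.213), and that of SMAD1 at 6 h without WT 27-1, WT 2-1, WT 2-2, mut 1-1 or mut 1-2 (limma-voom adjusted p = 0.0561 to 0.141). The list fell to 1 higher member without WT 2-2 or mut 1-2 and to 1 lower without mut 65-1 or mut 65-2.

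Some EMT transcription factors repress epithelial genes. Of the 9 listed factors tested 5 were lower and 1 higher (66.7% called against 21.4% of all genes, median -0.516). HMGA2, a chromatin protein upstream of several of the others, stood at 139, 206, 180.2 and 217 CPM in WT and 105, 96.7, 62.5 and 97.7 CPM in mut (-1.04 ± 0.15 SE, limma-voom adjusted p = 5.60e-06), and was lower in solvent (-1.24). SNAI2 (Slug) stood at 196, 254, 247 and 276 CPM and 164, 150.2, 109 and 159.8 CPM (-0.75 ± 0.15 SE, limma-voom adjusted p = 4.98e-04). ZEB2 (-0.95), TCF4 (-0.52) and TWIST2 (-0.41) were lower too, and FOXC2 was higher by 0.63. For SNAI1 (5.198, 3.31, 3.55 and 2.72 CPM in WT, 2.94, 3.21, 1.18 and 3.27 CPM in mut, -0.49, limma-voom adjusted p = 0.158) and ZEB1 (6.23 to 14.6 CPM and 5.62 to 7.103 CPM, -0.59, adjusted p = 0.0988) the groups overlapped and the test was not passed. Without WT 27-2 or without mut 1-2, 3 of the 9 were called lower. ZEB1 at 6 h was called without WT 27-1 (-0.77, limma-voom adjusted p = 0.0264).

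Of the 24 mesenchymal and matrix genes tested 4 were higher and 4 lower (33.3% called against 21.4% of all genes), with a median of -0.355. At an unadjusted p-value under 0.05 these numbers were 5 and 10, and by the edgeR quasi-likelihood test 3 and 6. COL1A1, a fibrillar collagen chain, stood at 47.3, 47.2, 26.5 and 40.4 CPM in WT and 14.4, 17.1, 8.104 and 16.4 CPM in mut (-1.51 ± 0.22 SE, limma-voom adjusted p = 1.01e-05). BGN, the proteoglycan biglycan, went the other way, at 6.48, 9.04, 3.58 and 12.7 CPM and 44.6, 40.6, 27.7 and 35.3 CPM (2.34 ± 0.32 SE, limma-voom adjusted p = 3.49e-06). COL8A1 (0.92), LOX, which cross-links collagen (0.79), and TAGLN (0.89) were higher. VIM was lower (-0.36) and so was TNC (-0.89). The limma-voom adjusted p-value of TNC at 6 h, 0.0169, became 0.0581 without WT 2-2 and 0.0773 without mut 1-2. Fibronectin (FN1) stood at 639, 1273, 2112 and 1484 CPM in WT and 759, 656, 369.7 and 633 CPM in mut, with the lowest WT library below the highest mut library (-1.11 ± 0.45 SE, limma-voom adjusted p = 0.0789). N-cadherin (CDH2) differed by -0.37 (limma-voom adjusted p = 0.118). Without WT 27-1 both FN1 at 6 h (-1.44, limma-voom adjusted p = 0.0288) and CDH2 at 6 h (-0.48, limma-voom adjusted p = 0.0437) passed, and 8 members of the list were lower. Without mut 1-2, 2 members were lower.

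Epithelial junction and identity genes were higher in 5 of 27 tested members (18.5%, against 21.4% of all genes called either way and 11.3% called higher, median 0.140). CLDN1, a tight junction claudin, stood at 113, 94.7, 54.3 and 95.8 CPM in WT and 226, 221, 271 and 258 CPM in mut (1.49 ± 0.29 SE, limma-voom adjusted p = 3.54e-04), and TJP3, a tight junction scaffold, at 5.93, 2.91, 1.04 and 3.11 CPM and 10.2, 10.1, 16.1 and 7.54 CPM (1.94 ± 0.40 SE). EPCAM, an epithelial adhesion molecule, overlapped between the groups at 55.6, 35.5, 27.5 and 26.2 CPM and 60.3, 54.3, 75.2 and 50.02 CPM (0.78 ± 0.19 SE, limma-voom adjusted p = 0.00406). WT 27-2 was the lowest WT library for CLDN1 and TJP3. CLDN7 was higher by 1.00 and ESRP2 by 0.24. The call of CLDN7 at 6 h was lost without WT 27-2 (0.69, limma-voom adjusted p = 0.143) and without mut 1-2, mut 65-1 or mut 65-2 (limma-voom adjusted p = 0.0523 to 0.0713). Without WT 27-2, 3 members were higher and 2 lower, with a median of -0.010, and without mut 1-2 or mut 65-2, 3 were higher. RBM47, an RNA-binding protein of epithelial splicing, stood at 16.01, 18.4, 7.87 and 16.7 CPM and 17.2, 13.8, 17.4 and 13.9 CPM and did not differ detectably (0.14, limma-voom adjusted p = 0.743). Without WT 27-2 the difference of RBM47 at 6 h was -0.14.

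Markers of luminal mammary cells did not move one way, with 2 higher and 2 lower of 5 in the table (80% called against 21.4% of all genes). They summed to 87.9 to 251.5 CPM in WT and 368 to 490.5 CPM in mut. MUC1 made up most of it (208, 184, 52.1 and 174 CPM and 451, 406, 445 and 324 CPM, 1.56), with the lowest level in WT 27-2. GATA3 was higher by 0.26, whereas FOXA1 (-0.70) and ESR1 (-1.41) were lower, and ESR1 did not exceed 1.07 CPM in any library. Their part in the result was not tested.

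The AP-1 family held 5 higher members of 18 tested (27.8%, against 21.4% of all genes called either way and 11.3% called higher, median 0.271), and 6 were higher in solvent. FOSL2 stood at 153, 148, 121 and 133 CPM in WT and 213, 202, 252 and 246 CPM in mut (0.72 ± 0.13 SE, limma-voom adjusted p = 1.94e-04). FOS gave 34.1, 39.5, 20.2 and 28.7 CPM and 53.8, 53.1, 39.3 and 41.6 CPM (0.66 ± 0.15 SE, limma-voom adjusted p = 0.00171), and its highest WT library passed its lowest mut library. JUND, another JUN protein, differed by 0.32 (64.7 to 78.1 CPM in WT, 80.5 to 101 CPM in mut). JDP2, a repressor that pairs with JUN proteins (0.52), and ATF4 (0.31) completed the set. The limma-voom adjusted p-value of JDP2, 0.0484, lay close to the threshold. Over the settings tried with no minimum fold, 4 to 7 members were called higher.

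Genes of epidermal growth factor receptor signalling and its ERK feedback were called in 13 of 25 members, 9 higher and 4 lower (52.0% against 21.4% of all genes). EGR1, an immediate early transcription factor, stood at 152, 223, 165 and 236 CPM in WT and 333, 403, 385 and 442 CPM in mut (1.03 ± 0.17 SE, limma-voom adjusted p = 4.60e-05). DUSP6, the phosphatase of ERK, stood at 203, 259, 224 and 276 CPM and 332, 394, 359 and 394 CPM (0.63). The feedback inhibitor SPRY1 stood at 3.98, 2.84, 1.97 and 1.88 CPM and 7.803, 7.74, 9.695 and 7.52 CPM (1.69 ± 0.23 SE). All 3 were without overlap. In solvent SPRY1 differed by 0.46 (limma-voom adjusted p = 0.0621), and the change between solvent and 6 h was 1.24 ± 0.28 (SE, limma-voom adjusted p = 0.122). DUSP4, another ERK phosphatase, was lower, at 233, 299, 311 and 297 CPM and 156, 161, 149 and 152 CPM (-0.87), as were PHLDA1 (-0.65), the ligand TGFA (-0.41) and IER3 (-0.40). MYC differed by 0.42 at 6 h and by -0.01 in solvent. The change of that difference was 0.43 and did not pass the test (limma-voom adjusted p = 0.337).

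Genes of oxidant defence driven by NRF2 were called in 10 of 15 members, 9 of them higher (66.7% called against 21.4% of all genes, median 0.475). AKR1B10, an aldo-keto reductase, stood at 1.58, 0.747, 0.508 and 1.04 CPM in WT and 3.598, 2.85, 4.92 and 3.36 CPM in mut (1.99 ± 0.32 SE, limma-voom adjusted p = 3.71e-05). AKR1C2 gave 73.9, 76.98, 101 and 125 CPM and 292, 207, 213 and 219 CPM (1.32), with AKR1C3 (0.81) and AKR1C1 (0.97) beside it, and since these paralogs share most of their sequence their split is uncertain. GCLC, which makes the first product of glutathione synthesis, was higher by 0.58 and NFE2L2, which encodes NRF2, by 0.36. HMOX1, haem oxygenase 1, was the lower member (7.33, 10.3, 7.45 and 9.799 CPM and 3.36, 3.897, 2.65 and 4.08 CPM, -1.30), with a difference of 0.42 in solvent (limma-voom adjusted p = 0.607). For HMOX1 the change between solvent and 6 h was -1.71 and did not pass the test (limma-voom adjusted p = 0.618).

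The amino acid stress genes under ATF4 were higher in 6 of 16 members (37.5% against 11.3% of all genes higher), and their median of 0.623 was the highest of the lists. DDIT4, an inhibitor of mTORC1, stood at 519, 436, 519.5 and 361 CPM in WT and 632, 666, 881 and 802 CPM in mut (0.70 ± 0.13 SE, limma-voom adjusted p = 2.75e-04). ASNS, asparagine synthetase (0.98), and the serine synthesis enzymes PHGDH (0.60), PSAT1 (0.84) and SHMT2 (0.49) were higher, as was CEBPB (0.34). With all libraries CHAC1, DDIT3, TRIB3, SESN2 and SLC7A11 did not pass the test at 6 h (limma-voom adjusted p = 0.131 to 0.641). In solvent 1 member was higher, and the median of the list was 0.496. The list depended on single libraries. Without mut 1-2 or without mut 65-2, 2 members were called, and 3 without WT 27-1, while 12 were called with the replications of a clone summed. PHGDH did not pass without any one of these 3 libraries, nor SHMT2 without either of the mut libraries.

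Genes of adhesion sites and the actin cytoskeleton were lower in 5 and higher in 2 of 25 members tested (28%, near the 21.4% of all genes). PTK2, the focal adhesion kinase, stood at 229.8, 258, 242 and 239 CPM in WT and 177, 178, 173 and 177 CPM in mut (-0.45 ± 0.05 SE, limma-voom adjusted p = 1.00e-07), and paxillin (PXN) at 606 to 683 CPM and 482 to 493 CPM (-0.42). MYO10 (-0.47) and vinculin (VCL, -0.33) were lower as well. KANK4, a scaffold of the cell cortex, stood at 24.02, 32.2, 18.96 and 31.3 CPM and 9.39, 7.09, 3.06 and 7.14 CPM at 6 h (-2.05 ± 0.32 SE, limma-voom adjusted p = 2.29e-05). In solvent KANK4 stood at 0.881, 0.856, 0.401 and 0.201 CPM in WT, and mut 1-2 held 3.44 CPM against at most 0.282 CPM in the other mut libraries. The solvent difference of KANK4 was -1.69 (limma-voom adjusted p = 0.489), and -3.09 without that library (limma-voom adjusted p = 0.319). The unconventional myosin MYO7B stood at 1.099 to 2.43 CPM and 0.437 to 0.82 CPM (-1.48, limma-voom adjusted p = 0.0556), and the groups did not overlap. The edgeR quasi-likelihood test gave MYO7B at 6 h an adjusted p-value of 0.011 and DESeq2 one of 0.00178.

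The genotype difference in solvent was read beside that at 6 h, in other libraries of the same clones. In solvent 1887 genes were called (12.7%), 948 higher and 939 lower. Of these, 1436 were also called at 6 h, which is 76.1% of the solvent calls and 45.2% of the 6 h calls, and all 1436 had the same direction. The remaining 1741 genes of the 6 h list had the same sign in solvent in 94.4% of cases. Of the 1436 shared genes, 954 (66.4%) differed more at 6 h than in solvent. The matching shares over all genes tested were not computed for either percentage. Without the solvent library mut 1-2 the solvent count was 1520, without mut 65-2 it was 1242, and without the series WT 27-2 it was 1604.

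**Figure D4:**
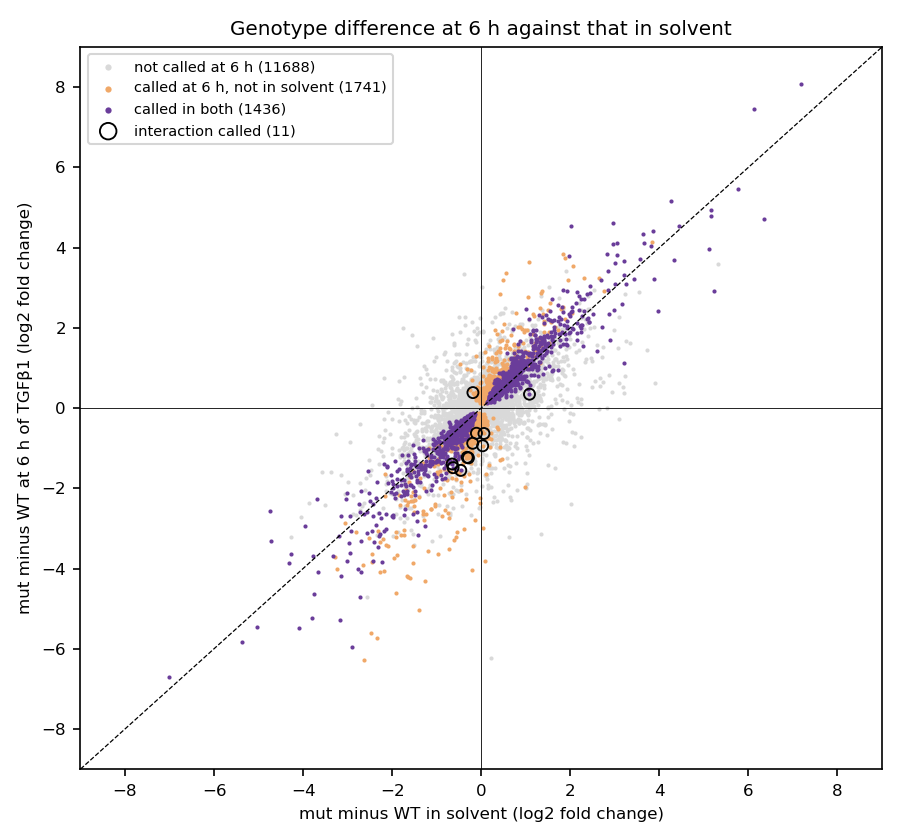
Log2 difference of mut against WT at 6 h of TGFβ1 (vertical) against that in solvent (horizontal) for the 14865 genes tested, 1 point a gene, with the dashed line marking equal differences. Purple points (1436) were called in both, orange points (1741) at 6 h and not in solvent, grey points not at 6 h, and circles mark the 11 genes whose difference changed between solvent and 6 h. Purple points lie in the lower left and upper right corners.

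Whether the difference itself changed was tested as an interaction, the difference at 6 h minus that in solvent. It was called for 11 genes (0.074%), of which 7 were among the 1741. Solvent and 6 h libraries of 1 clone and replication form a series, and the fit that gave these 11 did not use this pairing. A fit that blocked on the series called 46 genes, 10 higher and 36 lower, all 11 included. The changes given for single genes come from the fit without the block. A change that did not pass there is thus not shown to be absent. The count fell to 1 without the solvent library mut 1-2, when FERMT1 alone of the 11 passed (limma-voom adjusted p = 0.0241), and to 0 without the series mut 1-2. Over single libraries left out it ran from 1 to 19. The 11 genes are therefore described by their levels.

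**Figure D5:**
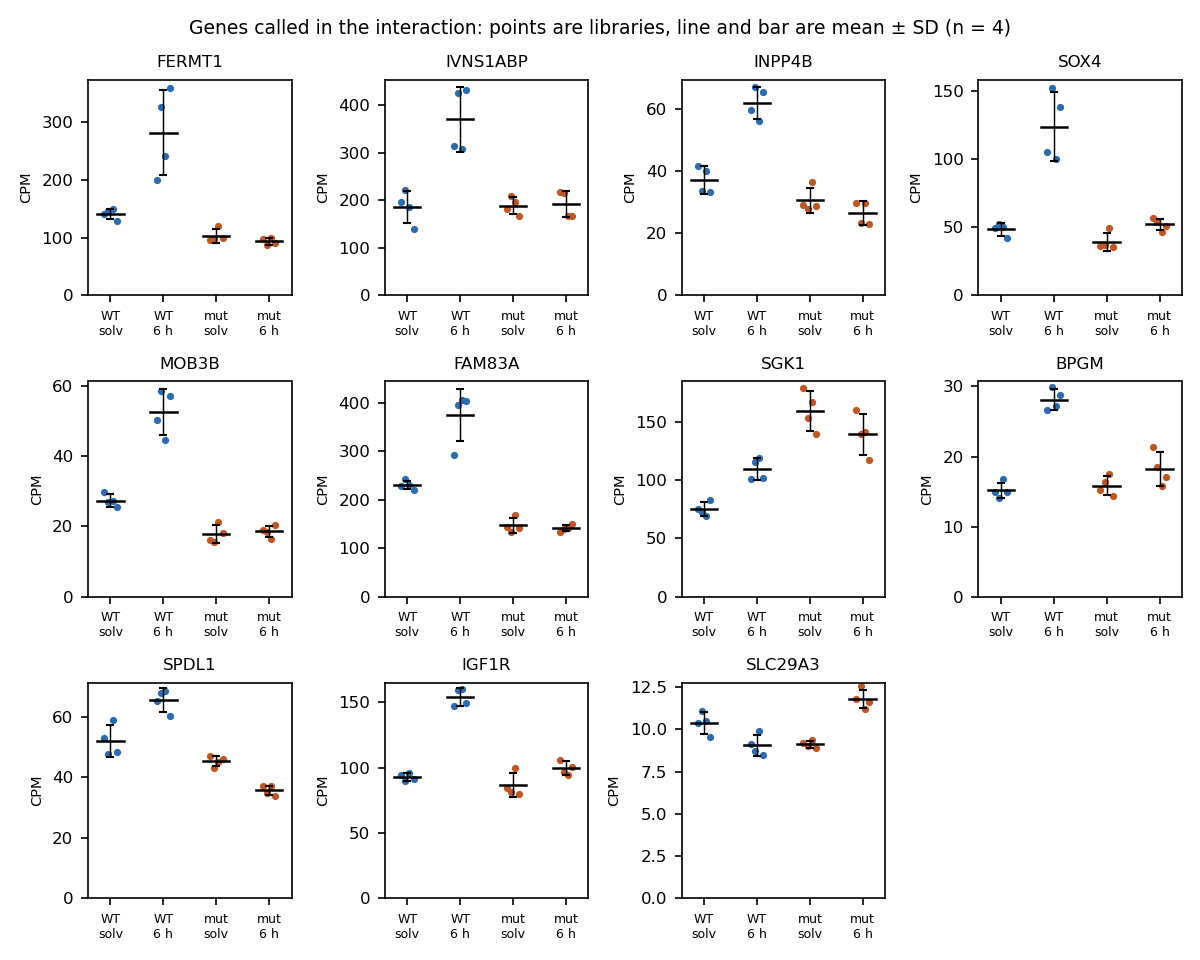
CPM of the 11 genes called in the interaction, in 4 groups of 4 libraries, with blue points WT, orange points mut and a black line and bar at the mean ± SD. In each of these genes but SGK1 and SLC29A3, all 4 WT libraries at 6 h lie above every library of the other 3 groups. SGK1 has its highest mean in mut solvent.

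FERMT1, which encodes kindlin 1 and activates integrins, gave the interaction with the smallest p-value. Its WT levels were 141, 145, 151 and 129 CPM in solvent and 200.3, 327, 242 and 360.0 CPM at 6 h. The mut levels were 95.3, 97.7, 121 and 99.3 CPM and 98.1, 86.9, 98.8 and 91.3 CPM. All WT libraries at 6 h lay above all other libraries, and the difference went from -0.46 to -1.55, an interaction of -1.09 ± 0.17 (SE, limma-voom adjusted p = 0.00486). FAM83A, which acts in growth factor signalling, stood at 228, 242, 232 and 221 CPM and 294, 397, 407 and 403 CPM in WT and at 145, 133, 169.7 and 142 CPM and 135, 141, 141 and 149.5 CPM in mut (-0.74 ± 0.14 SE, limma-voom adjusted p = 0.0272), and shares reads with FAM83A-AS1.

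SOX4, a transcription factor of the TGFβ response, stood at 49.4, 52.6, 50.4 and 41.7 CPM in WT solvent and 105, 152, 99.6 and 138 CPM in WT at 6 h. In mut it gave 35.8, 36.7, 49.2 and 35.7 CPM and 56.5, 54.1, 46.6 and 50.9 CPM. The solvent groups lay close together (-0.32, limma-voom adjusted p = 0.132), and the interaction was -0.91 ± 0.19 (SE, limma-voom adjusted p = 0.0425). IGF1R, the receptor of insulin-like growth factor 1, stood at 94.7, 90.1, 95.9 and 91.1 CPM and 147, 159, 160.3 and 149 CPM in WT and at 84.8, 81.6, 99.97 and 80.2 CPM and 106, 96.9, 94.2 and 101 CPM in mut (-0.52 ± 0.09 SE, limma-voom adjusted p = 0.0259). INPP4B, a phosphoinositide phosphatase, had an interaction of -0.96, the kelch protein IVNS1ABP -0.97, MOB3B of the MOB kinase activators -0.86, the bisphosphoglycerate mutase BPGM -0.70, and SPDL1, which recruits dynein to kinetochores, -0.69. In 10 of the 11 genes the difference was larger at 6 h than in solvent.

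SGK1, a kinase of the AKT family, was the exception. It stood at 75.6, 72.6, 69.4 and 82.8 CPM in WT solvent and 179, 153, 167 and 139 CPM in mut solvent, a difference of 1.08. At 6 h the levels were 101, 116, 119 and 102 CPM and 159.9, 139.6, 141 and 117 CPM, and the difference was 0.35, which was not called without WT 2-2 or without mut 1-1. SLC29A3, a lysosomal nucleoside transporter, was the one with a positive interaction (0.57 ± 0.11 SE, limma-voom adjusted p = 0.0402), at 9.14, 8.74, 9.88 and 8.46 CPM in WT and 11.8, 12.5, 11.2 and 11.6 CPM in mut at 6 h against 9.52 to 11.1 CPM and 8.91 to 9.34 CPM in solvent.

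The 4 libraries of a genotype come from 2 clones, and the replications are described as independent biological replicates, so that the p-values measure the spread between libraries of these clones. Among further genes named above, the 6 h calls of ASNS, ESRP2, GATA3, ITGB4, JDP2, LAMB3, PHLDA1, PSAT1, SMAD7, SMURF2, TWIST2, VCL, VIM and ZEB2 were lost without WT 27-2, at limma-voom adjusted p-values from 0.0503 (ITGB4) to 0.156 (VIM). Differences between clones that do not come from the edit cannot be told apart from the genotype.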

How the data were processed

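RNA of MCF10A clones was sequenced on a NovaSeq with the TruSeq RNA Sample Prep Kit v2, which keeps no strand. The authors trimmed reads with Trimmomatic, aligned and counted them with STAR on GRCh38 in the Ensembl version, and deposited raw counts per gene and library (17788 genes, 0 columns unused). Whether counting used strand is not given in the sources used here. GENCODE release 44 (GRCh38) named 17763 genes. Groups came from the labels. Following the study's model, genes passing filterByExpr (minimum count 10, minimum total 15) were scaled by library size and fitted with limma 3.58.1 (voom, model ~0 + condition over 32 libraries, 8 groups of 4) in R 4.3.3, two-sided, with Benjamini-Hochberg adjustment over 14865 genes. The code was tested on simulated data. Library pairs of a group differed by a chi-square per degree of freedom of at least 10.5, which is more than counting error. The fit counted each library as a sample. The chi-square cannot show that replications of a clone are independent samples of a genotype.

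The gene lists and the naming rule were chosen with earlier results of these data known. The rule named JUNB, the 12 highest and 12 lowest called genes with a mean of at least 10 CPM and no overlap of libraries, the interaction calls, up to 4 called members per list (16 lists) and 9 readout genes of the study. Solvent and 6 h libraries of a series (clone and replication number in the labels) deviated together, with correlations of 0.101 to 0.663, and were treated as paired in the blocked interaction. Alternatives were TMM scaling factors, edgeR 4.0.16 quasi-likelihood, DESeq2 1.42.0, other filters, sums per clone, blocks and left-out libraries. Leaving out a series for the solvent difference and the interaction was added after seeing the data. Some items named by this rule are not reported here.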

Additional observations from a re-analysis of the deposited data

Results flagged for a closer look

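Within groups of 4 libraries, the values of 15 of 202 groups examined (100 named genes and the library total in each genotype) held a library far from the other 3 by Dixon's criterion on the log2 scale, which chance meets in about 1 of 20 groups. In WT 27-1, DUSP4 stood at 233.5 CPM (others 296.8 to 311), FAM83A at 293.7 CPM (396.7 to 406.7), STEAP1 at 7.92 CPM (12.3 to 12.6) and TGFBR1 at 44.9 CPM (59.8 to 61.5). In WT 27-2, KCNH2 stood at 0.296 CPM (2.54 to 3.48) and RBM47 at 7.87 CPM (16.01 to 18.4). In mut 1-2, HMGA2 stood at 62.5 CPM (96.7 to 104.8), ID3 at 33.6 CPM (48.2 to 49.7), ITGA5 at 166.6 CPM (228.8 to 234.8), MN1 at 0.458 CPM (1.495 to 1.9), SERPINE2 at 25.2 CPM (38.9 to 41.3), SNAI1 at 1.18 CPM (2.94 to 3.27) and SPRY1 at 9.70 CPM (7.52 to 7.80). AKR1C2 stood at 291.6 CPM in mut 1-1 (207 to 218.8), and MYO7B at 0.437 CPM in mut 65-2 (0.764 to 0.82). Of these 15, the 7 in mut 1-2 made it the library named most often.

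The genotype difference changed between solvent and 6 h of TGFβ1 in 11 genes by the interaction test. The log2 changes were -1.09 for FERMT1, -0.86 for MOB3B, -0.74 for FAM83A, -0.96 for INPP4B, -0.91 for SOX4, -0.97 for IVNS1ABP, -0.69 for SPDL1, -0.70 for BPGM, -0.52 for IGF1R, -0.74 for SGK1 and 0.57 for SLC29A3. Over the 26 alternative settings in which each was refitted, FERMT1 passed in 23, SPDL1 in 18, INPP4B and IVNS1ABP in 16, IGF1R in 15, MOB3B in 12, BPGM in 11, FAM83A in 10, SGK1 and SOX4 in 8 and SLC29A3 in 5, and no sign changed.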

How the results depend on the processing

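The 6 h count of 3177 became 2079 with the replications of a clone summed and 743 with a minimum absolute log2 difference of 1, and the solvent count of 1887 became 1239 and 495. Leaving out 1 library gave 2459 to 3202 calls at 6 h and 1242 to 1817 in solvent. The solvent count was lowest without mut 65-2. The interaction count of 11 was 17 by the edgeR quasi-likelihood test, 46 by DESeq2, 1 in a fit of its groups alone, 1 with a minimum difference of 1, 0 with sums per clone (limma-voom, 567 genes at an unadjusted p-value under 0.05), 46 with the series as a replicate block and 0 without the series mut 1-2 (limma-voom, 449 genes unadjusted). It ran from 1 to 19 over single libraries left out, with 19 without WT 27-1, 1 without WT 2-1, mut 65-2, the solvent libraries WT 2-2 or mut 1-2, 2 without mut 65-1 or the solvent library WT 2-1, 3 without WT 2-2 or mut 1-2, 7 without mut 1-1, and 6 without the solvent libraries WT 27-1, mut 1-1 or mut 65-1. Fewer samples or genes were tested in some of these fits, and otherwise the cause was not tested. TMM factors gave 3173 calls at 6 h, 49.0% of them higher against 53.0%.

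JUNB ran from -0.030 without mut 65-2 to 0.61, and RBM47 at 6 h, 0.14 with all libraries, from -0.14 without WT 27-2 (also as a series) to 0.26. Replication numbers did not pair genotypes at 6 h (correlation 0.028), and blocking on them as a replicate block gave 3463 and 2177 calls. Apart from JUNB, the named genes' 6 h differences kept direction and side of the threshold in 956 refits, lost the call in 20, gained it in 9 and reversed in 1, and with 1 library left out in 757, 30, 4 and 1. Levels under 0.0747 CPM are below what 3 counts show, which limits MMP1, IL33, SPRR3 and MMP10 in mut, and MYH15 in mut 1-2.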

Other observations

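Cytokine genes were called in both directions, 5 higher and 3 lower of 21 tested (38.1% against 21.4% of all genes). IL33, an alarmin of epithelial nuclei, had no count in any mut library at 6 h and stood at 0.0916, 0.922, 0.846 and 1.42 CPM in WT, 155 counts in all. The pooled WT level was at least 53.4-fold above a floor of 3 counts over the mut group. This bound leaves out the spread between libraries, and WT 27-1 lay close to its own floor of 0.0687 CPM. IL1B stood at 26.2, 54.1, 44.03 and 60.6 CPM in WT and 10.02, 9.67, 14.7 and 15.8 CPM in mut (-1.85 ± 0.29 SE, limma-voom adjusted p = 3.18e-05), and IL11 differed by -1.58. CXCL2, a neutrophil chemokine with close paralogs, stood at 3.16, 3.56, 2.35 and 3.41 CPM and 5.68, 4.62, 9.599 and 6.69 CPM (1.04). ICAM1 (0.71), LIF (0.89) and NFKBIA (0.37) were higher, and so was IL6 (2.78), which stayed under 0.765 CPM in each library.

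Of the 17 sterol synthesis genes tested 29.4% were called, against 21.4% of all genes. HMGCS1 (-0.70), IDI1 (-0.61), STARD4 (-0.42) and SC5D (-0.31) were lower and SREBF2, their transcriptional driver, was higher (0.21). Of 25 interferon-stimulated genes MX1 (1.35) and IRF1 (0.61) were higher (8.0%, against 21.4% of all genes called either way and 11.3% called higher). The call of IDI1 was lost without mut 65-2, those of SREBF2 and HMGCS1 without WT 27-2 and that of MX1 without WT 2-1, WT 2-2 or mut 65-2. Without mut 65-2, 2 sterol genes were lower. The 2 interferon-stimulated calls became 4 without WT 27-1 and 1 without WT 2-1, WT 2-2 or mut 65-2. None of the 35 proliferation genes was called at 6 h by limma-voom, by the edgeR quasi-likelihood test or by DESeq2, and 1 had an unadjusted limma-voom p-value under 0.05, while their median was -0.00144. Without WT 27-1 or without WT 27-2, 1 of them was called higher.

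RHOB and NEDD9 stood apart within the list of actin and adhesion genes. RHOB, a small GTPase of endosomes, was at 14.2, 15.4, 17.6 and 14.2 CPM in WT and 27.3, 49.1, 20.7 and 39.3 CPM in mut (1.10), and NEDD9, a focal adhesion scaffold, at 18.1, 22.3, 20.6 and 21.8 CPM and 36.4, 60.3, 27.6 and 62.8 CPM (1.12). In both genes clone 65 lay above clone 1 in each replication. The difference of NEDD9 in solvent was 3.22, with 3.44, 1.98, 4.77 and 1.94 CPM in WT and 15.8, 35, 21.4 and 39.6 CPM in mut. The change of that difference was -2.10 ± 0.53 (SE, limma-voom adjusted p = 0.194).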
